A study of Homo sapiens with 12 samples.

Results

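CHAC1 and 9 other genes of glutathione synthesis and turnover were followed in RNA sequencing libraries of C4-2B and 22RV1, 2 human cell lines of prostate cancer, grown with or without the oligonucleotide 56-mer. The 10 genes are CHAC1, CHAC2, GCLC, GCLM, GSS, GSR, GGCT, OPLAH, GPX1 and GPX4, taken by symbol from the 60314 entries with a symbol in each line's normalized table. CHAC1 was selected on its 56-mer change in C4-2B, with the results of these libraries known, so the C4-2B changes of the 10 genes are given below as a description without a test.

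Glutathione is a tripeptide of glutamate, cysteine and glycine that serves as a main soluble antioxidant of cells. Glutamate-cysteine ligase, made of a catalytic subunit (GCLC) and a modifier subunit (GCLM), joins glutamate to cysteine, and glutathione synthetase (GSS) adds glycine. CHAC1 and CHAC2 break reduced glutathione down to 5-oxoproline and cysteinylglycine, GGCT releases 5-oxoproline from gamma-glutamyl amino acids, and OPLAH returns 5-oxoproline to glutamate. The selenoenzymes GPX1 and GPX4 use glutathione to reduce peroxides, and glutathione reductase (GSR) regenerates it with NADPH.

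C4-2B is a castration-resistant derivative of the LNCaP line, and 22RV1 comes from a human prostate carcinoma xenograft that relapsed after castration. The series presents the 56-mer as an aptamer, a folded nucleic acid that binds a ligand, of cyanobacterial origin, studied beside hormone therapy of prostate cancer. The 4 groups of 3 libraries were C4-2B with the 56-mer at 50 nM, C4-2B control, 22RV1 with the 56-mer at 50 nM, and 22RV1 control. Every group, controls included, was labelled wild type and kept for 48 h in RPMI-1640 with fetal bovine serum and a defined L-glutamine supply of 2 mM, so no group lacked glutamine. The labels name no other oligonucleotide for the controls. The series text describes biological triplicates without saying how the cultures were separated, and p-values measure the spread between these libraries.

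The recovered reads per library ranged from 12277758 to 12508539 in C4-2B with the 56-mer, from 10245014 to 13627140 in C4-2B controls, from 8847368 to 13740386 in 22RV1 with the 56-mer and from 11834331 to 13586045 in 22RV1 controls. All 8 prostate epithelial markers were detected, with KLK3 between 6190 and 6865 normalized read counts in C4-2B and between 1101 and 1409 in 22RV1. The leukocyte marker PTPRC reached at most 1.07 in C4-2B and 1.77 in 22RV1, and CD3E was listed at 0 in all 12 libraries. The summed level of 10 markers of leukocytes, endothelium and fibroblasts lay between 534 and 677 with the 56-mer and between 506 and 793 in controls of C4-2B, and between 384 and 515 with the 56-mer and between 387 and 452 in controls of 22RV1. COL1A1, a fibroblast marker, was the highest of them, between 264 and 415 in C4-2B and between 242 and 354 in 22RV1. In C4-2B the endothelial marker VWF lay between 84.7 and 231, and the leukocyte marker CD68 between 73.7 and 222. PECAM1, COL1A2 and DCN were listed at 0 in every C4-2B library. Among the C4-2B libraries, 56-mer replicate 1 stood apart in its relation to transcript length. Across 10457 genes its deviation from the line mean correlated with length at a Spearman rho of -0.33, against -0.10 and 0.016 in the other 56-mer libraries and 0.065 to 0.25 in the controls. In 22RV1, 56-mer replicate 1 had the strongest relation to GC content, with a rho of -0.58 over 12276 genes, against -0.14 to 0.38 in the other 5 libraries. The share of signal from mitochondrially encoded genes was higher in every 56-mer library than in the controls of its line, from 7.84% to 8.29% with the 56-mer and from 7.60% to 7.69% in controls of C4-2B, and from 5.74% to 6.51% with the 56-mer and from 5.32% to 5.57% in controls of 22RV1. Its part in the changes given here was not tested.

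CHAC1 had 2157, 2306 and 2134 normalized read counts in C4-2B with the 56-mer, against 1449, 1633 and 1536 in C4-2B controls. Every 56-mer library lay above every control library. The means were 2199 ± 93.4 with the 56-mer and 1539 ± 92.4 in controls (SD, n = 3 each), a ratio of 1.43 and a log2 change of 0.52 ± 0.088 (SE). Log2 changes here are 56-mer over control on the scale of log2(normalized read count + 1), with the standard error of a limma fit over all genes of the line. In the authors' deposited table the log2 change of CHAC1 was 0.51 ± 0.092 (SE), with an adjusted p of 0.447, which was the smallest in that table. After a correction of each library for GC content and length, the log2 change was 0.41, and without 56-mer replicate 1 it was 0.53. In these bulk libraries a change in the number of cells carrying a transcript and a change in RNA per cell cannot be told apart.

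In 22RV1, CHAC1 had 175, 171 and 154 normalized read counts with the 56-mer, against 188, 178 and 147 in controls. The groups overlapped. The means were 166 ± 11.2 with the 56-mer and 171 ± 21.4 in controls (SD, n = 3 each), and the log2 change was -0.032 ± 0.18 (SE), with a 95% confidence interval from -0.40 to 0.33 and a limma adjusted p of 0.9996 over 20517 genes. No test of the difference between the lines is given for CHAC1 alone, because its C4-2B change chose it. Over the 15527 genes tested in both lines, limma called a difference between the lines' 56-mer changes for 0 genes, with 1227 at an unadjusted p under 0.05; the count was 1 with quantile normalization and 5 without the filter on low values.

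The promoter of CHAC1 is shown beside that of GCLM because each holds a short motif of a stress-responsive factor known to regulate that gene. The windows run from 250 bases before to 50 bases after the transcription start in RefSeq annotation of GRCh38.p14, at chr15:40953221-40953520 on the plus strand for CHAC1 and at chr1:93909381-93909680 on the minus strand for GCLM, each written 5′ to 3′ along its gene. Capitals mark the motif, which lies on the opposite strand in both windows.
CHAC1: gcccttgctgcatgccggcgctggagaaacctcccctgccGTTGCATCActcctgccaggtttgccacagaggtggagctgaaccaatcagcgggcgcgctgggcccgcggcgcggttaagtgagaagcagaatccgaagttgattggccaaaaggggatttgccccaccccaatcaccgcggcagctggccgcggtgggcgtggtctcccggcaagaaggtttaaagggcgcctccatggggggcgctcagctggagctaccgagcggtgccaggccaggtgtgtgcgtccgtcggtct
GCLM: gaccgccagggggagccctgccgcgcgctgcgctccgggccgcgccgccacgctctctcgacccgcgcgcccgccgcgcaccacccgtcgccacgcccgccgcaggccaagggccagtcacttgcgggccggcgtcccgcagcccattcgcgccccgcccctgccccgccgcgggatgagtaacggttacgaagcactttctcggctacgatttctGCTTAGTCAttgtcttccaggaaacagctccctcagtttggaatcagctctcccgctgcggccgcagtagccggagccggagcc
The capitals in CHAC1 are the reverse complement of TGATGCAAC, a match to TGATGNAAN, a form of the amino acid response element bound by ATF4 with a C/EBP factor, and the match starts 210 bases before the start of transcription. Searched on both strands, TGATGNAAN occurred in 3.61% of 35116 promoter windows of the same length. The capitals in GCLM are the reverse complement of TGACTAAGC, a match to TGACNNNGC, the core of the antioxidant response element bound by NRF2, starting 34 bases before the start of transcription. TGACNNNGC occurred in 13.3% of the windows. No window read held both motifs, and the windows of CHAC2, GCLC, GPX1 and GPX4 held neither sequence. A match describes letters and says nothing of binding in these cells.

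**Figure D1:**
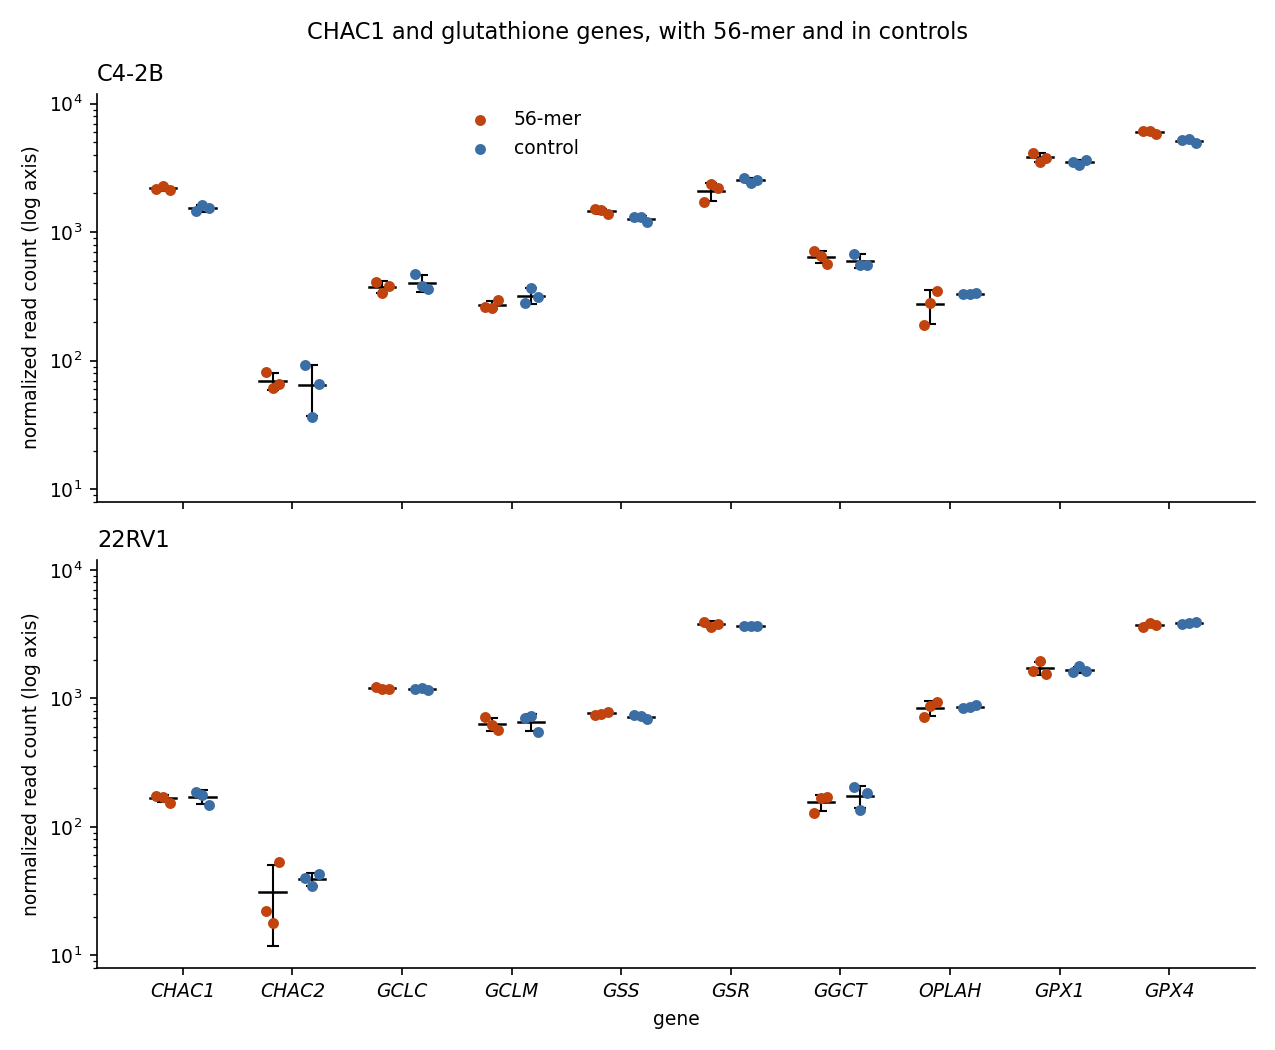
Normalized read counts on a log axis for the 10 genes in C4-2B (top) and 22RV1 (bottom), 56-mer libraries left of controls. Points are libraries, bars the mean and whiskers the SD (n = 3 each). CHAC1 lies at 2134 to 2306 with the 56-mer against 1449 to 1633 in controls of C4-2B, and at 154 to 175 against 147 to 188 in 22RV1.

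The other enzymes of glutathione degradation had lower counts or overlapping groups. CHAC2, the constitutive relative of CHAC1, had 81.4, 61.1 and 66.3 normalized read counts in C4-2B with the 56-mer and 92.1, 36.5 and 66.1 in controls, a log2 change of 0.18 ± 0.36 (SE). In 22RV1 it had 22.3, 17.8 and 53.0 with the 56-mer and 40.0, 34.5 and 43.1 in controls, a log2 change of -0.48 ± 0.40 (SE) with a 95% confidence interval from -1.29 to 0.33. The groups overlapped in both lines, and CHAC2 had the lowest normalized read counts of the 10 genes and the widest standard errors. GGCT averaged 646 ± 70.7 with the 56-mer and 597 ± 73.9 in controls of C4-2B, and 156 ± 22.8 with the 56-mer and 174 ± 34.7 in controls of 22RV1 (SD, n = 3 each). Its log2 changes were 0.12 ± 0.13 in C4-2B and -0.15 ± 0.19 in 22RV1 (SE), with overlapping groups in both.

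OPLAH, which closes the cycle back to glutamate, had 190.2, 281 and 351 normalized read counts in C4-2B with the 56-mer and 332, 332 and 335 in controls. The C4-2B controls were nearly identical, while the 56-mer libraries spread on both sides of them. The log2 change was -0.32 ± 0.19 (SE), and it was -0.083 without 56-mer replicate 1, the library with the lowest value. In 22RV1 OPLAH had 711, 876 and 939 with the 56-mer and 846, 861 and 886 in controls, a log2 change of -0.047 ± 0.10 (SE). Here too the lowest value came from 56-mer replicate 1. OPLAH shares 4.65% of its exon bases with SMPD5 on the opposite strand in GENCODE 29, and the strand setting of the counting is not given, so part of its reads may belong to SMPD5.

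Of the synthesis genes, GSS was the one with separate groups. GSS had 1502, 1484 and 1385 normalized read counts in C4-2B with the 56-mer, against 1305, 1324 and 1204 in controls, a log2 change of 0.19 ± 0.095 (SE). In 22RV1 it had 748, 757 and 787 with the 56-mer, against 739, 725 and 697 in controls. All 56-mer libraries of either line lay above the controls of that line, by narrow margins in 22RV1, where the log2 change was 0.085 ± 0.10 (SE) with a 95% confidence interval from -0.12 to 0.29 and a limma adjusted p of 0.9996. GCLC had 412, 338 and 379 in C4-2B with the 56-mer and 471, 379.8 and 361 in controls, and 1237, 1193 and 1189 in 22RV1 with the 56-mer and 1173, 1196 and 1169 in controls. GCLM had 264, 258 and 295 in C4-2B with the 56-mer and 281, 369.6 and 313 in controls, and 716, 618 and 572 in 22RV1 with the 56-mer and 702, 731 and 548 in controls. Both ligase subunits overlapped between groups in each line. Their log2 changes in C4-2B were -0.097 ± 0.16 for GCLC and -0.23 ± 0.17 for GCLM (SE), and in 22RV1 0.032 ± 0.086 for GCLC, with an interval from -0.14 to 0.21, and -0.051 ± 0.11 for GCLM, with an interval from -0.28 to 0.18.

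GSR had 1723, 2356 and 2200.0 normalized read counts in C4-2B with the 56-mer, against 2654, 2407 and 2543 in controls. All 3 56-mer libraries lay below the controls, and 56-mer replicate 1 lay far below the other 5 libraries. The means were 2093 ± 330.1 with the 56-mer and 2535 ± 124 in controls (SD, n = 3 each), a ratio of 0.826 and a log2 change of -0.29 ± 0.099 (SE), which became -0.15 without 56-mer replicate 1. In 22RV1 GSR had 3956, 3588 and 3824 with the 56-mer, against 3639, 3668 and 3639.6 in controls, with overlapping groups and a log2 change of 0.053 ± 0.065 (SE; 95% confidence interval from -0.077 to 0.18).

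GPX4, which reduces phospholipid hydroperoxides and thereby restrains ferroptosis, had 6166, 6099 and 5856 normalized read counts in C4-2B with the 56-mer, against 5261, 5283 and 4935 in controls. The groups were separate, with a ratio of 1.17 and a log2 change of 0.23 ± 0.067 (SE). After correction for GC content and length the log2 change was 0.11. The longest GPX4 transcript has a GC content of 62.5%. The rho with GC content was 0.30 and 0.32 in 56-mer replicates 2 and 3 of C4-2B and -0.18 in replicate 1. Replicate 1 had the highest GPX4 count and a rho with length of -0.33, against 0.065 to 0.25 in the controls. The longest GPX4 transcript has 1184 bases. The parts of GC content and of length in the GPX4 change were not tested. In 22RV1 GPX4 had 3573, 3878 and 3753 with the 56-mer and 3819.6, 3832 and 3916 in controls, with overlapping groups and a log2 change of -0.047 ± 0.064 (SE; 95% confidence interval from -0.18 to 0.083).

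GPX1, which reduces hydrogen peroxide in cytosol and mitochondria, had 4135, 3543 and 3778 normalized read counts in C4-2B with the 56-mer and 3525, 3311 and 3649 in controls. The groups overlapped, and the log2 change was 0.13 ± 0.078 (SE); it was -0.00070 once GC content and length were corrected for. In 22RV1 it had 1642, 1951 and 1559.8 with the 56-mer and 1591, 1770.4 and 1644 in controls, a log2 change of 0.037 ± 0.084 (SE). The processed pseudogene GPX1P1 could share reads with GPX1. Its means were 341 ± 47.1 with the 56-mer and 335 ± 50.2 in controls of C4-2B, and 299 ± 47.0 with the 56-mer and 276 ± 19.4 in controls of 22RV1 (SD, n = 3 each).

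**Figure D2:**
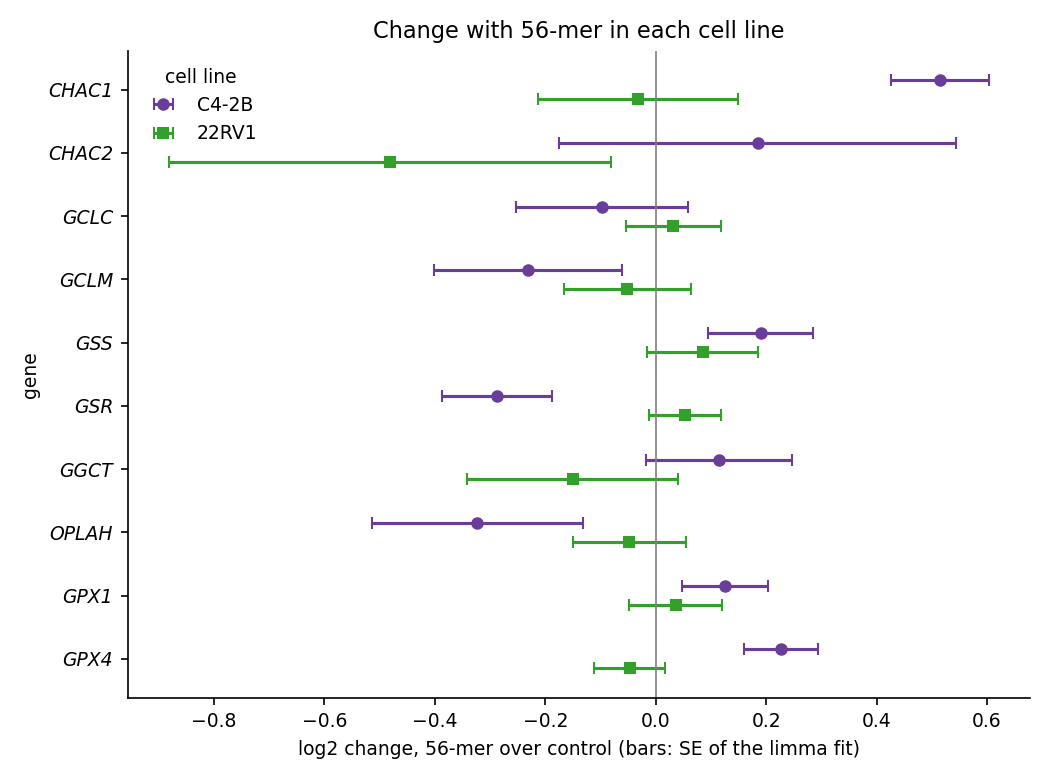
Log2 change of 56-mer over control for each gene in C4-2B (circles) and 22RV1 (squares), with the SE of the limma fit as bars. CHAC1 in C4-2B lies farthest right, at 0.52, while its 22RV1 value is -0.032. In 22RV1 the bars of every gene except CHAC2 include 0.

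Over the 10 genes, all of which passed the filter in both lines, 1, CHAC1, was among the C4-2B genes with a limma adjusted p under 0.05, where 0.066% of the 16657 tested genes were. CHAC1 was chosen for this change, so nothing is read from that count, which is 0 with edgeR and also when any C4-2B library other than 56-mer replicate 1 is left out. In C4-2B the groups did not overlap for 4 genes, with CHAC1, GSS and GPX4 higher and GSR lower with the 56-mer, where 14.7% of tested genes did not overlap. The median log2 change was 0.12 over the 10 genes and -0.011 over all tested genes. In 22RV1 limma called 0 of the 10, with 0 at an unadjusted p under 0.05, where 0.00975% of the 20517 tested genes were called; DESeq2 and edgeR called 0 as well. Groups did not overlap for 1 of the 10 genes in 22RV1, GSS, where 9.03% of tested genes did not overlap. The median log2 change in 22RV1 was -0.039 over the 10 genes and -0.0026 over all tested genes.

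Ratios of reads within a library do not depend on its size factor and are not corrected for its relation to GC content or length. Those with CHAC1 carry the C4-2B change for which it was chosen, and all are a description. The CHAC1/GCLC ratio of reads was 5.24, 6.83 and 5.63 in C4-2B with the 56-mer, against 3.08, 4.30 and 4.26 in C4-2B controls. The CHAC1/GSR ratio of reads was 1.25, 0.979 and 0.970 in C4-2B with the 56-mer, against 0.546, 0.679 and 0.604 in controls. Both ratios were higher in every 56-mer library of C4-2B, whereas the CHAC1/CHAC2 ratio of reads overlapped, from 26.5 to 37.8 with the 56-mer and from 15.7 to 44.8 in controls. In 22RV1 the CHAC1/GCLC ratio was 0.141, 0.143 and 0.129 with the 56-mer and 0.160, 0.149 and 0.126 in controls, and the CHAC1/GSR ratio was 0.0442, 0.0476 and 0.0402 with the 56-mer and 0.0517, 0.0484 and 0.0404 in controls. Both overlapped there. Per kilobase of merged exons the CHAC1/GCLC ratio lay between 22.0 and 28.7 with the 56-mer and between 12.9 and 18.1 in controls of C4-2B, and between 0.543 and 0.602 with the 56-mer and between 0.528 and 0.673 in controls of 22RV1. On that scale CHAC1 was above the ligase's catalytic subunit in every C4-2B library and below it in every 22RV1 library. The GSR/GPX4 ratio of reads, regeneration against a use of glutathione, was 0.279, 0.386 and 0.376 in C4-2B with the 56-mer, against 0.504, 0.456 and 0.515 in controls, lower in every 56-mer library. The lowest of these was from 56-mer replicate 1. In 22RV1 it was 1.11, 0.925 and 1.02 with the 56-mer and 0.953, 0.957 and 0.929 in controls. The ratio of the ligase subunits, GCLC/GCLM, overlapped between groups in both lines, from 1.28 to 1.56 with the 56-mer and 1.03 to 1.68 in controls of C4-2B, and from 1.73 to 2.08 with the 56-mer and 1.64 to 2.13 in controls of 22RV1. The GPX4/GPX1 and OPLAH/GGCT ratios overlapped in both lines too, while GSS/GCLC was 3.65 to 4.40 with the 56-mer and 2.77 to 3.49 in controls of C4-2B and overlapped in 22RV1.

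**Figure D3:**
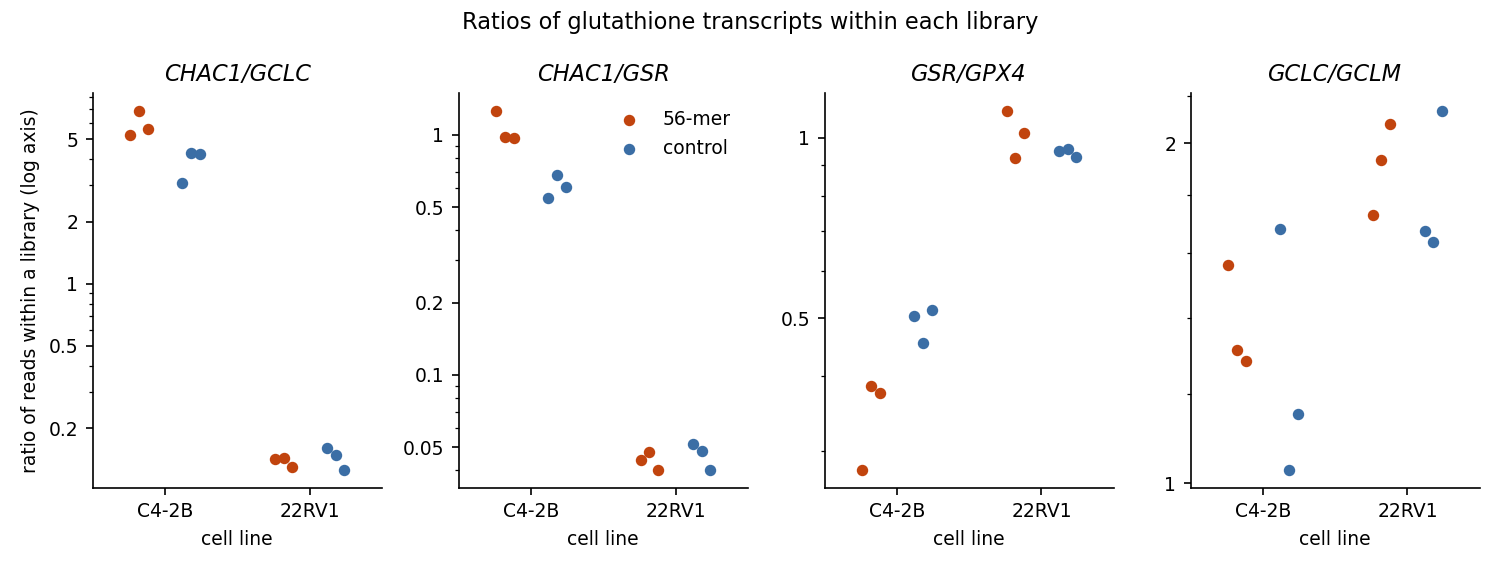
Ratios of reads of gene pairs within each library (log axes), 56-mer libraries left of controls in each line. The CHAC1/GCLC and CHAC1/GSR ratios of C4-2B are higher and the GSR/GPX4 ratio is lower in all 3 56-mer libraries than in the controls; the groups overlap in 22RV1, and the GCLC/GCLM ratio overlaps in both lines.

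In controls, the lines differed in which glutathione genes were high. Levels between the lines are given in RPM (the gene's reads scaled by the recovered reads of the library) for control libraries, with no test, because the tables were normalized separately. CHAC1 stood at 132 ± 8.31 RPM in C4-2B controls and 14.3 ± 1.77 in 22RV1 controls (SD, n = 3 each), a ratio of 9.26, and 0.792% of the 15527 genes tested in both lines had a higher ratio. GGCT stood at 51.2 ± 5.98 in C4-2B and 14.5 ± 2.92 in 22RV1, a ratio of 3.52. Both genes release 5-oxoproline. GPX1 stood at 299.8 ± 16.4 in C4-2B and 139 ± 7.39 in 22RV1, GSS at 109.6 ± 4.71 in C4-2B and 60.1 ± 1.73 in 22RV1, and GPX4 at 442 ± 13.1 in C4-2B and 322 ± 4.96 in 22RV1. For these 5 genes every C4-2B control lay above every 22RV1 control. The share of all genes whose controls separate the lines was not counted, so nothing is read from this separation. Of those 15527 genes, 3.86% had a ratio at least as far from 1 as CHAC1, 18.5% as GGCT and 40.4% as GPX1. The share was 51.5% for GSS and 72.9% for GPX4, all on the log2 scale.

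The reverse order held for 4 genes, and nothing is read from that separation either. GCLC stood at 34.6 ± 4.78 RPM in C4-2B controls and 98.4 ± 0.952 in 22RV1 controls (SD, n = 3 each), which makes 22RV1 2.84-fold higher. OPLAH stood at 28.5 ± 0.392 in C4-2B and 72.1 ± 1.78 in 22RV1, 2.53-fold higher in 22RV1. GCLM stood at 27.5 ± 3.89 in C4-2B and 55.1 ± 8.09 in 22RV1, and GSR at 217 ± 10.3 in C4-2B and 305 ± 0.678 in 22RV1. Both ligase subunits, GSR and OPLAH were higher in 22RV1 controls, on a scale where the median over all genes was higher there too. Of the genes tested in both lines, 26.2% had a ratio at least as far from 1 as GCLC and 31.4% as OPLAH. The share was 44.9% for GCLM and 71.4% for GSR. CHAC2 stood at 5.56 ± 2.36 in C4-2B and 3.27 ± 0.371 in 22RV1, and the lines overlapped. The median log2 ratio of C4-2B over 22RV1 was -0.29 over all genes tested in both lines.

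Divided by the merged exon length of each gene in GENCODE 29, which gives RPKM, the levels can be set in order between genes. In C4-2B controls GPX4 had 219 ± 6.51 and GPX1 209.6 ± 11.5 RPKM, and their libraries overlapped. CHAC1 followed with 64.2 ± 4.04 and GSR with 57.8 ± 2.73 RPKM, and these neighbours overlapped too. Below them stood GGCT with 32.0 ± 3.75, GSS with 17.7 ± 0.762 and OPLAH with 6.41 ± 0.0880. GCLM with 5.08 ± 0.718, CHAC2 with 4.21 ± 1.79 and GCLC with 4.0 ± 0.552 came last and could not be ordered beyond their spread. In 22RV1 controls GPX4 had 159 ± 2.46, GPX1 97.4 ± 5.17 and GSR 81.0 ± 0.180 RPKM, each separate from the next. OPLAH with 16.2 ± 0.400 and GCLC with 11.4 ± 0.110 followed. GCLM with 10.2 ± 1.49, GSS with 9.74 ± 0.279, GGCT with 9.10 ± 1.83 and CHAC1 with 6.93 ± 0.858 overlapped from neighbour to neighbour, and CHAC2 was lowest with 2.48 ± 0.281. CHAC1 was therefore the third of the 10 genes in C4-2B and the ninth in 22RV1. With the median transcript length in place of merged exons it was the fourth in C4-2B and the ninth in 22RV1. The order of other genes depended on the length used as well. With the median transcript length GSR, at 211, lay above GPX1, at 174, in 22RV1 controls. In C4-2B controls GSS, at 91.2, then lay above GGCT, at 55.5, and GPX4 was separate from GPX1. GCLC, at 19.2, and GCLM, at 15.2, then lay above CHAC2, at 4.21, in C4-2B controls.

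**Figure D4:**
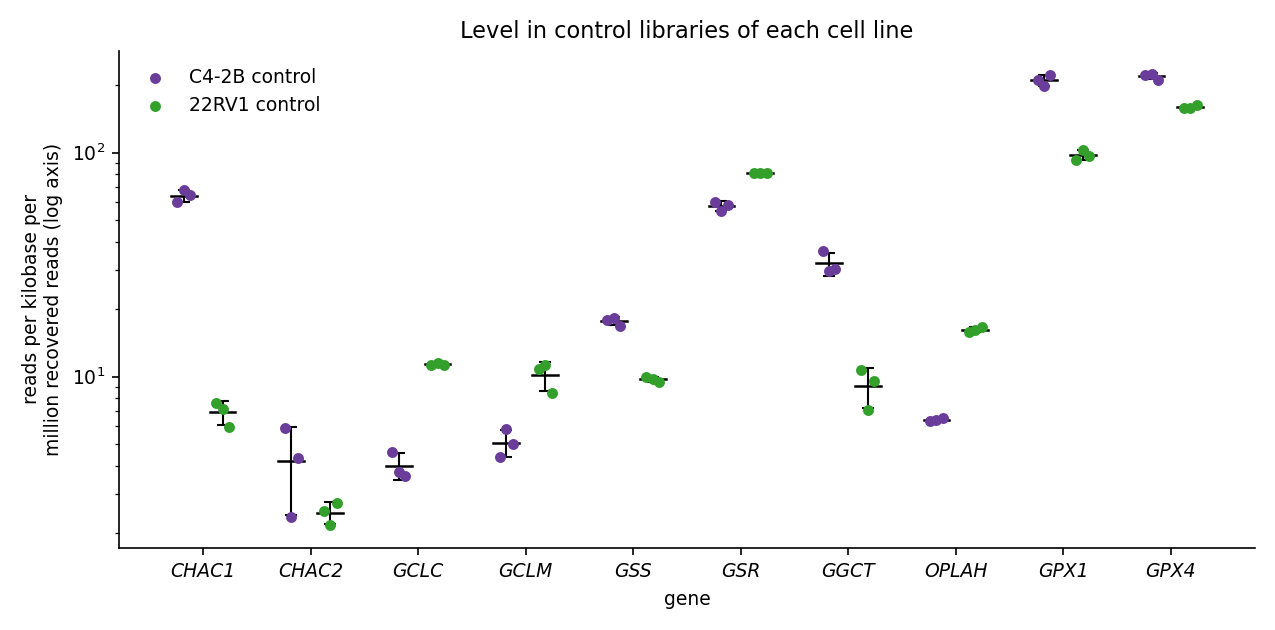
RPKM, per recovered reads (log axis), in control libraries, C4-2B left of 22RV1 for each gene; points are libraries, bars the mean and whiskers the SD (n = 3 each). CHAC1 lies at 64.2 in C4-2B and 6.93 in 22RV1, while GCLC lies at 4.0 in C4-2B and 11.4 in 22RV1.

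The genes whose pattern was most like that of CHAC1 were sought by Pearson's r of log2 values centred within each line, over the 12 libraries and 9922 genes with a mean of at least 100 in both lines. They were DYNLT1, a dynein light chain (r = 0.915), NAXE, an epimerase that repairs damaged NAD(P)H (0.907), AC010320.3 (0.903), NRM, an inner nuclear membrane protein (0.890), and EFCAB14 (0.876). The libraries share their depth and composition across genes. These r also carry the C4-2B change for which CHAC1 was chosen, so they are a description. DYNLT1 had a log2 change of 0.62 in C4-2B and -0.0048 in 22RV1. Of the other glutathione genes, GPX4 had an r of 0.762 with CHAC1 and GSS 0.729, while GSR had -0.603, OPLAH -0.507 and GCLC -0.412. By r, GPX4 ranked 88 and GSS 134 among the 9922 genes. Within 22RV1 alone the r with CHAC1 was -0.26 for GPX4, 0.11 for GSS and 0.91 for GCLM, over 6 libraries.

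Related genes were read from 11 lists that hold 131 genes outside the 10, covering the supply of cysteine and NADPH, other peroxidases, thioredoxins, transferases, transport, and the NRF2, ATF4 and ferroptosis pathways. Of these, 114 were tested in C4-2B and 119 in 22RV1. Limma called 0 of them in either line, and edgeR called 0 in either line. An unadjusted limma p under 0.05 was found for 11 of them in C4-2B (9.65%) and 4 in 22RV1 (3.36%), near the 8.92% of all tested genes in C4-2B and 3.91% in 22RV1. DESeq2 called 1 in C4-2B, SLC25A39, and 0 in 22RV1. The list medians of the log2 change lay between -0.056 and 0.12 in C4-2B and between -0.022 and 0.084 in 22RV1, against -0.011 and -0.0026 over all tested genes of C4-2B and 22RV1.

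SLC25A39, the carrier that brings glutathione into mitochondria, had 4501, 4069.8 and 4369.7 normalized read counts in C4-2B with the 56-mer, against 3553, 3632 and 3522 in controls. Every 56-mer library lay above the controls, with a log2 change of 0.27 ± 0.073 (SE) and a limma adjusted p of 0.278. In 22RV1 it averaged 3315 ± 261 with the 56-mer and 3444 ± 24.9 in controls (SD, n = 3 each), a log2 change of -0.058. Over the 5 tested genes of glutathione transport in C4-2B, 2 had a positive and 3 a negative log2 change, with a median of -0.028. In 22RV1, 6 of 7 tested transport genes had a positive log2 change, with a median of 0.084, and ABCC2, an exporter of glutathione conjugates, had the smallest p of the list with 0.32 ± 0.23 (SE; limma adjusted p = 0.9996).

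The 12 tested other peroxidases and peroxiredoxins of C4-2B had the highest list median, 0.12, with 9 positive and 3 negative log2 changes and 0 called by limma, while the 13 tested in 22RV1 had 7 positive and 6 negative. PRDX5, a peroxiredoxin found in mitochondria and peroxisomes, had the smallest p of this list in C4-2B, with means of 2987 ± 175 with the 56-mer and 2557 ± 244 in controls, a log2 change of 0.23 ± 0.085 (SE) and a limma adjusted p of 0.456. PRDX2, a cytosolic peroxiredoxin, was the most abundant, with 10646 ± 594 with the 56-mer and 9738 ± 490.1 in controls. Among the 10 tested thioredoxin and glutaredoxin genes of C4-2B, 7 had a positive and 3 a negative log2 change, and mitochondrial TXN2 had 0.17 ± 0.088 (SE; limma adjusted p = 0.586). In 22RV1, TXNRD2, the mitochondrial thioredoxin reductase, averaged 849 ± 23.4 with the 56-mer and 997 ± 54.1 in controls (SD, n = 3 each), with separate groups, a log2 change of -0.23 ± 0.094 (SE) and a limma adjusted p of 0.9996.

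Of the 13 tested glutathione S-transferases of C4-2B, which conjugate glutathione to electrophiles, 10 had a positive and 3 a negative log2 change, with a median of 0.049. GSTA4, which acts on the lipid peroxidation product 4-hydroxynonenal, had 80.4, 76.3 and 123 normalized read counts with the 56-mer and 216, 106 and 126 in controls, which overlapped, and a log2 change of -0.64 ± 0.29 (SE; limma adjusted p = 0.531). MGST1, a membrane-bound member, was the most abundant transferase in both lines, with log2 changes of 0.059 in C4-2B and -0.026 in 22RV1. The 12 transferases tested in 22RV1 were split evenly, 6 positive and 6 negative, and GSTZ1 had the smallest p there, with means of 158 ± 17.8 with the 56-mer and 118 ± 17.1 in controls (SD, n = 3 each) and a log2 change of 0.42 ± 0.20 (SE; limma adjusted p = 0.9996). For the supply of cysteine, 3 of 10 tested genes in C4-2B had a positive log2 change, with a median of -0.056, and MTR, the methionine synthase, had -0.41 ± 0.20 (SE; limma adjusted p = 0.567). In 22RV1 the cysteine list was even, 5 positive and 5 negative, with a median of 0.011, and SLC1A1, a glutamate and cysteine transporter, had 0.34 ± 0.18 (SE; limma adjusted p = 0.9996). SLC3A2, the heavy chain of the cystine importer, was the most abundant of the list, at 4800.4 ± 75.0 with the 56-mer and 4451 ± 105 in controls of C4-2B and 8188 ± 284 with the 56-mer and 8328 ± 222 in controls of 22RV1 (SD, n = 3 each).

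The remaining lists held no call by limma in either line. Of the gamma-glutamyl and related peptidases, 4 of 7 tested had a positive log2 change in C4-2B (median 0.0060) and 6 of 8 in 22RV1 (median 0.027). CNDP2, a dipeptidase that splits cysteinylglycine, was both the most abundant and the one with the smallest p in C4-2B, at 3738 ± 206 normalized read counts with the 56-mer and 3382 ± 174 in controls (SD, n = 3 each), a log2 change of 0.14 ± 0.076 (SE; limma adjusted p = 0.597). In 22RV1, GGACT, a gamma-glutamylamine cyclotransferase, had 119.6, 77.9 and 77.8 with the 56-mer and 115, 122 and 147 in controls, with overlapping groups and a log2 change of -0.50 ± 0.23 (SE; limma adjusted p = 0.9996). The aminopeptidase NPEPPS was the most abundant of that list in 22RV1, with a log2 change of 0.022.

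For glutathione-dependent aldehyde clearance, 3 of 4 genes had a positive log2 change in either line, with medians of 0.099 in C4-2B and 0.021 in 22RV1. ADH5, which oxidises the formaldehyde adduct of glutathione, had a log2 change of 0.15 ± 0.12 in C4-2B, and ESD, the esterase of the same route, had -0.078 ± 0.10 in 22RV1 (SE). GLO1, the glyoxalase that acts on the methylglyoxal adduct, was the most abundant in both lines, with log2 changes of 0.078 in C4-2B and 0.035 in 22RV1. Of the 8 genes of NADPH supply, 4 had a positive log2 change in C4-2B (median -0.011) and 6 in 22RV1 (median 0.026). MTHFD2, a mitochondrial folate enzyme, had the smallest p of that list in both lines, with log2 changes of -0.17 ± 0.088 in C4-2B (limma adjusted p = 0.590) and 0.087 ± 0.072 in 22RV1 (SE). The isocitrate dehydrogenases led by abundance, with a log2 change of 0.11 for IDH2 in C4-2B and 0.029 for IDH1 in 22RV1.

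Of the ferroptosis and selenoprotein synthesis genes, 6 of 14 had a positive log2 change in C4-2B (median -0.051) and 5 of 15 in 22RV1 (median -0.022). FTH1, the ferritin heavy chain that stores iron, was the most abundant in both lines. It averaged 29870.0 ± 1926 normalized read counts with the 56-mer and 27321 ± 908 in controls of C4-2B, and 8764 ± 502 with the 56-mer and 8928 ± 81.0 in controls of 22RV1 (SD, n = 3 each). Its log2 change in C4-2B was 0.13 ± 0.053 (SE; limma adjusted p = 0.496), and -0.033 with quantile normalization. SEPSECS, an enzyme of selenocysteine formation, had the smallest p in 22RV1, with a log2 change of -0.14 ± 0.13 (SE). In 22RV1 the peroxidase list had its smallest p in SOD1, with a log2 change of -0.12 ± 0.077, and its highest level in PRDX1, with -0.022 ± 0.059 (SE). Among the thioredoxin genes the most abundant were TXN in C4-2B, with a log2 change of 0.15 ± 0.091, and TXNRD1 in 22RV1, with 0.056 ± 0.060 (SE).

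The regulators tied to the motifs above were read in the same way. KEAP1, the repressor of NRF2, had 1265, 1387 and 1465 normalized read counts in C4-2B with the 56-mer, against 1182, 1170.3 and 1154 in controls, a log2 change of 0.23 ± 0.098 (SE) with a limma adjusted p of 0.509. The 12 tested genes of the NRF2 list had a median of 0.044 in C4-2B and 0.011 in 22RV1, each with 7 positive and 5 negative log2 changes. NFE2L1, a relative of NRF2, was the most abundant of that list, with log2 changes of 0.030 in C4-2B and -0.057 in 22RV1. OSGIN1, a target of NRF2, had the smallest p in 22RV1 with 0.24 ± 0.18 (SE; limma adjusted p = 0.9996). The 19 tested genes of the ATF4 list, chosen to leave out CHAC1, had 11 positive and 8 negative log2 changes in C4-2B, with a median of 0.016, and 14 positive and 5 negative in 22RV1, with a median of 0.060. PHGDH, the entry enzyme of serine synthesis, had the smallest p of that list in C4-2B, with means of 12748 ± 453 with the 56-mer and 11258 ± 222 in controls and a log2 change of 0.18 ± 0.057 (SE; limma adjusted p = 0.392). ASNS, asparagine synthetase, had the smallest p in 22RV1, with 218, 199 and 196 with the 56-mer, against 142, 112 and 187 in controls, and a log2 change of 0.51 ± 0.19 (SE; limma adjusted p = 0.9996). SLC7A5, a large neutral amino acid transporter, was the most abundant there, with a log2 change of 0.045 that is -0.068 with quantile normalization.

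The following 4 genes fall outside the rule for naming and were chosen for their known ties to CHAC1 after their values were seen. ATF4, which drives CHAC1 transcription under amino acid stress, averaged 10138 ± 823 normalized read counts in C4-2B with the 56-mer and 9916 ± 361 in controls, a log2 change of 0.029 (limma adjusted p = 0.933) whose sign changes with normalization. In 22RV1 ATF4 averaged 4619 ± 32.7 with the 56-mer and 4403 ± 182 in controls, with separate groups. DDIT3, a further factor of that response, averaged 1517 ± 199 with the 56-mer and 1554 ± 126 in controls of C4-2B (log2 change -0.039). TRIB3, an inhibitor of ATF4, averaged 3534 ± 81.0 with the 56-mer and 3224 ± 236 in controls of C4-2B (log2 change 0.13), with separate groups. SLC7A11, the cystine importer, averaged 899.5 ± 24.1 with the 56-mer and 988 ± 138 in controls of C4-2B (log2 change -0.13; SD, n = 3 each). In 22RV1 the log2 changes were 0.080 for DDIT3, -0.064 for TRIB3 and 0.13 for SLC7A11, with overlapping groups. Groups were separate for 14.7% of tested genes in C4-2B and 9.03% in 22RV1. None of the 4 passed the limma threshold in either line.

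**Figure D5:**
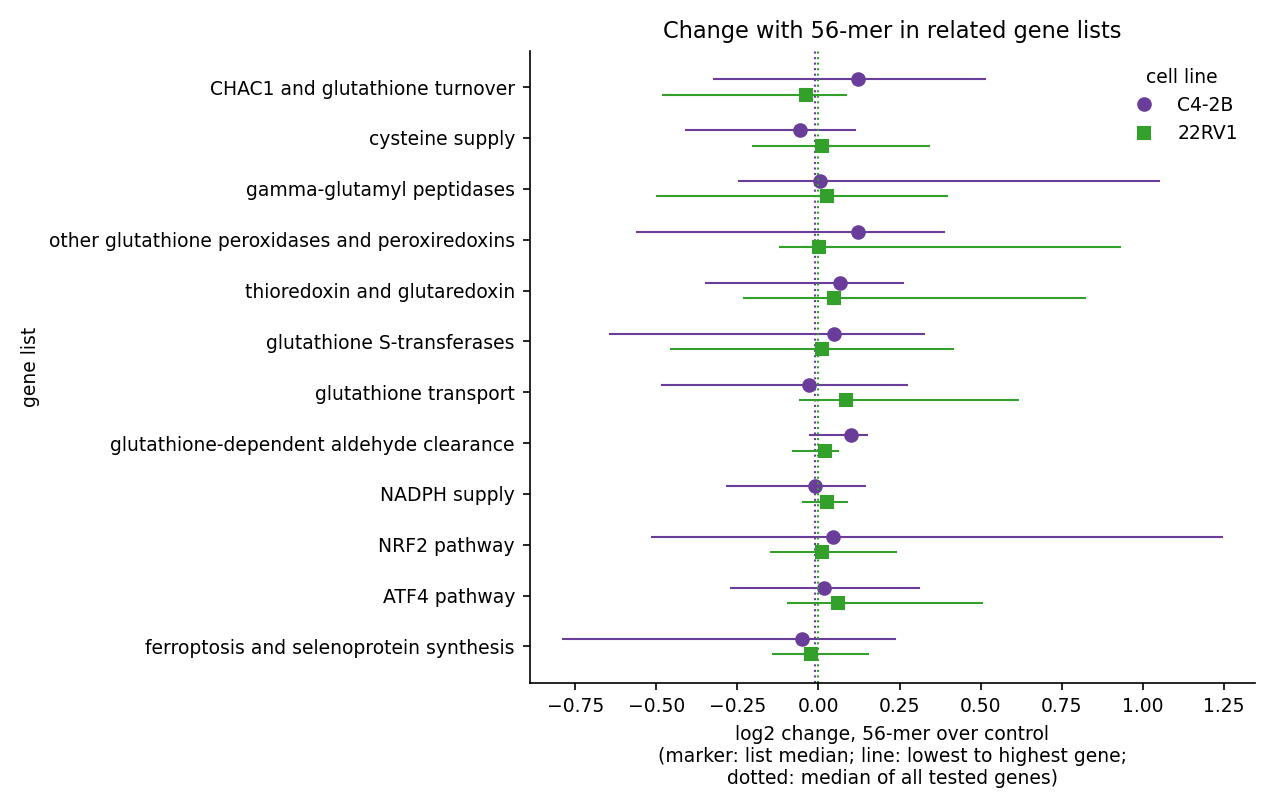
Log2 change of 56-mer over control for the 10 glutathione genes and 11 related lists in C4-2B (circles) and 22RV1 (squares). Markers are list medians, lines run from the lowest to the highest gene, and dotted lines are the medians of all tested genes, -0.011 in C4-2B and -0.0026 in 22RV1; the medians of the related lists stay between -0.056 and 0.12.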

How the data were processed

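RNA of 12 libraries was column-purified and sequenced by a service company, per the labels. For each line the authors deposited a table of normalized signal (normalized read counts per gene symbol) and a table of their own comparison, which gives, per the file headers, a log2 fold change, its standard error, a Wald score and p-values. DESeq is named, with no version, per the submitters' processing notes. No aligner, counter, strand setting, build or annotation is given in the sources used here. Whole reads were recovered for 100% of nonzero values within a tolerance of 0.01 of a whole multiple, with size factors from 0.732 to 1.18; that of 22RV1 control replicate 1 was 1.0001. An entry without a symbol was left out of each table.

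A gene entered the test if 3 or more of the line's 6 libraries reached a normalized read count of 10. The test was limma (version 3.58.1, R version 4.3.3, trend and robust variance) on log2(normalized read count + 1), two-sided, with Benjamini-Hochberg adjustment over all tested genes and a threshold of 0.05. The fit was tested on simulated data with 200 changed genes. Alternatives were other normalizations, filters and pseudocounts (0.1 and 10), a correction for GC content and length by lowess, edgeR 4.0.16 and DESeq2 1.42.0 on the recovered reads, and leaving out each library. Lengths, GC content and overlaps come from GENCODE 29, whose symbols matched 91.6% of the table symbols and all 10 genes. RefSeq promoter windows were read for 6 of the 10 genes. The members and lists were chosen with earlier results of these data known. Named are the 10 genes, per list and line the called genes, the gene with the smallest p and the one with the highest control mean (marker lists were used only to check the cell type), and the 5 genes most like CHAC1. Replicate numbers follow the order of the records. No counting intervals are given, because tests use the spread between libraries, and p-values rest on 3 libraries per group.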

Additional observations from a re-analysis of the deposited data

How the results depend on the processing

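No paired analysis was possible because neither the labels nor the columns give shared replicate numbers, culture days or batches. The 11 genes called by limma in C4-2B became 34 without the filter, 1 without trend and robust variance, 42 with DESeq2, 0 with edgeR and 21 after the GC and length correction. Leaving out 1 library gave 0 to 81 calls, 81 without 56-mer replicate 1 and 0 without any other library. Of the 10 genes, 1 was called, against 0 without trend and robust variance and 0 with edgeR, and 0 to 1 with a library left out. The log2 change of CHAC1 in C4-2B was 0.52 under both settings that lost its call and 0.47 to 0.56 with a library left out. CHAC1 was chosen for this change, so these counts support nothing.

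The 2 genes called in 22RV1 became 11 without the filter, 0 without trend and robust variance and 7 after that correction, with 0 to 13 with a library left out. CHAC1 in 22RV1 had a log2 change of 0.0079 after correction for GC and length and -0.14 to 0.041 with a library left out. The difference between the lines was called for 0 genes, 1 with quantile normalization and 5 without the filter. The cause of these shifts was not tested.

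Uncalled log2 changes that changed sign in C4-2B were ATF4 (-0.056), FTH1 (-0.033) and NFE2L1 (-0.011) with quantile normalization, ATF4 (-0.012), GPX1P1 (-0.015) and NFE2L1 (-0.011) with equal totals, and GPX1 (-0.00070), ATF4 (-0.044), GPX1P1 (-0.061) and SLC7A11 (0.026) after the GC and length correction. In 22RV1 they were SLC7A5 (-0.068) with quantile normalization, and GPX4 (0.0056), NPEPPS (-0.0074) and PRDX1 (0.0095) after the correction. Leaving out libraries changed the sign in C4-2B for ATF4 (-0.036 to 0.074), CHAC2 (-0.17 to 0.48), DDIT3 (-0.14 to 0.043), GCLC (-0.17 to 0.018), GPX1P1 (-0.053 to 0.15) and NFE2L1 (-0.054 to 0.14). It did so in 22RV1 for COL1A1 (-0.0083 to 0.26), ESD (-0.18 to 0.024), FTH1 (-0.070 to 0.013), GCLM (-0.18 to 0.027), GLO1 (-0.015 to 0.080), GPX1 (-0.058 to 0.10), IDH1 (-0.035 to 0.087), KRT8 (-0.092 to 0.029), MGST1 (-0.097 to 0.0098), NPEPPS (-0.00050 to 0.043), OPLAH (-0.13 to 0.069), PRDX1 (-0.037 to 0.0020), SLC25A39 (-0.10 to 0.0078) and SLC3A2 (-0.045 to 0.0042). CHAC2 had 17.8 to 92.1 normalized read counts, the lowest of the 10 genes, and the widest standard errors among them.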
